A study of Mus musculus with 8 samples.

Results

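The 34 genes described here belong to the integrated stress response and were chosen by symbol. They are 34 of 21887 protein-coding genes with coordinates on GRCm38, and 33 of them passed the filter that kept 14589 genes, a mean of at least 500 bp of peak over the 8 libraries. The exception was Fgf21, which had no peak in its window in any library. For each gene the measure was called length, the number of bp under deposited acetyl-H4 peaks of a library inside the gene's window, which spans the gene body and extends 5 kb beyond each end. Called length says how much sequence was called as acetylated, not how strongly.

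The study mapped acetylated histone H4 by ChIP-seq, with a rabbit polyclonal antibody, in macrophages grown from the bone marrow of C57BL/6 mice. It had 4 groups of 2 libraries each: untreated, PAM3 (PAM3CSK4, a synthetic lipopeptide that activates Toll-like receptors), 25HC (25-hydroxycholesterol, an oxysterol), and 25HC followed by PAM3. In each group 1 library came from mouse A and 1 from mouse B, so all comparisons rest on the same pair of mice. The time label was 0 without PAM3 and 18 with PAM3, in a unit that the labels do not state, so PAM3 and that time cannot be told apart.

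The integrated stress response is a pathway in which kinases sensing amino acid shortage, unfolded protein or haem deficiency phosphorylate the initiation factor eIF2. General protein synthesis then falls, while the transcription factor ATF4 is translated more and switches on genes for amino acid uptake and synthesis, for growth arrest and for the recovery of translation. ATF4 binds composite elements with C/EBP partners, and in macrophages its target ATF3 is best known as a brake on Toll-like receptor signalling.

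Before the values, the sequence in front of the gene starts was searched for elements tied to this pathway. The members were chosen as genes of the pathway, so an excess of its elements among them may follow from that choice, which was not tested. RefSeq promoter entries on GRCm38.p6 were at hand for 31 of the 34 genes and were searched on both strands over the 250 bases before each listed start. The composite element TGATGNAA was found in 7 of the 31 (22.6%): Asns, Atf3, Chac1, Fgf21, Nupr1, Pck2 and Vldlr. Of all 17492 genes with an entry, 3.64% held it. The exact form TGATGCAA, which is contained in the first pattern, was found in 5 of the 31 (16.1%), against 0.926% of all genes. In Atf3, Chac1, Nupr1, Fgf21 and Vldlr it lay on the opposite strand, so it reads TTGCATCA in the direction of the gene. It ended 103 bases before the start of Atf3 and 103 before that of Nupr1, 186 before that of Chac1 and 132 before that of Fgf21. In Vldlr it lay before the second of the listed starts, ending 193 bases upstream of it. The cyclic AMP element TGACGTCA was found in Ppp1r15a, 1 of 31 (3.23%), against 2.2% of all genes. The ER stress response element, in which CCAAT and CCACG stand at a fixed spacing, was found in Hspa5, 1 of 31 (3.23%), against 0.154%. CCAAT on its own, which that element contains, was found in 54.8% of the members and 39.5% of all genes, and CCACG in 61.3% and 35.5%. A match describes the letters and is no evidence of binding.

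The following promoters, each the 250 bases before a start, are shown because they carry the exact composite element (Atf3, Chac1, Nupr1, Fgf21) or the ER stress response element (Hspa5), or because the acetylated stretch at that start reached farther upstream with PAM3 (Ddit4). They read 5′ to 3′ on the strand of the gene, and capitals mark the matched element. Atf3 is at chr1:191183334-191183583 on the minus strand, Chac1 at chr2:119350992-119351241 on the plus strand, Nupr1 at chr7:126625471-126625720 on the minus strand, Fgf21 at chr7:45615491-45615740 on the minus strand, Hspa5 at chr2:34771840-34772089 on the plus strand and Ddit4 at chr10:59951771-59952020 on the minus strand. The Ddit4 window holds neither TGATGNAA nor TGACGTCA and so has no capitals.
Atf3: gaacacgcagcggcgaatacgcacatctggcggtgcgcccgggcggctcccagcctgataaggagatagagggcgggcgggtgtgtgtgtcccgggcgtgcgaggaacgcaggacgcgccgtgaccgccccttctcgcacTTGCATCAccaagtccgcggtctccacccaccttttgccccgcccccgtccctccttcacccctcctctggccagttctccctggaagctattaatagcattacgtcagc
Chac1: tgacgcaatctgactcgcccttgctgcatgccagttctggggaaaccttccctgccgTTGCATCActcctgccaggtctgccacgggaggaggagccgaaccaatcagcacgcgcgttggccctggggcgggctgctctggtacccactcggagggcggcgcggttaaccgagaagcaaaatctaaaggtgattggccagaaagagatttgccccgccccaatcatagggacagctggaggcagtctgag
Nupr1: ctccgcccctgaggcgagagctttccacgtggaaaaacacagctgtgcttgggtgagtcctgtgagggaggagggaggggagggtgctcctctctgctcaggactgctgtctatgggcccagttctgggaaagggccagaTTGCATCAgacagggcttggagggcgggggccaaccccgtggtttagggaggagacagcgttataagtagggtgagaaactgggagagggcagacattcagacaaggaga
Fgf21: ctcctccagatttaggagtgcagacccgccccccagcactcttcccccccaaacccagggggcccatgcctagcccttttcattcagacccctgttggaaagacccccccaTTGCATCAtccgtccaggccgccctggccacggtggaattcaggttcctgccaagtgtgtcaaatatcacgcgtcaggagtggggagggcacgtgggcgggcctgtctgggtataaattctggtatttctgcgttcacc
Hspa5: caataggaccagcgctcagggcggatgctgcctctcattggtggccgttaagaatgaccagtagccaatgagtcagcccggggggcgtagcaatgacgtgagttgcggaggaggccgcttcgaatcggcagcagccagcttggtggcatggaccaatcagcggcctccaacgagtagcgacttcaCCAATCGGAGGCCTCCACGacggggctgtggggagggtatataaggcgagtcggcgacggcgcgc
Ddit4: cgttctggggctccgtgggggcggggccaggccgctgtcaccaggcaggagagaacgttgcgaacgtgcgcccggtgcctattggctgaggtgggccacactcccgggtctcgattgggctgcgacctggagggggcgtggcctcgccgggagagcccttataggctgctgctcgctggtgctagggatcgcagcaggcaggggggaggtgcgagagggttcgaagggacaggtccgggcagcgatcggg

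The 8 peak lists held 48446 to 54552 peaks, the fewest in 25HC mouse A and the most in PAM3 mouse B. They covered 56.6 to 72.4 Mb, the least in PAM3 mouse A and the most in PAM3 mouse B. All 10 macrophage markers had a peak in all 8 libraries. So did 4 of 6 T cell markers (Cd3g, Cd4, Lck, Cd5), 2 of 6 B cell, 4 of 6 dendritic cell, 3 of 6 erythroid and 3 of 6 neutrophil and granulocyte precursor markers (Elane, Prtn3, Ltf), and 0 of 6 fibroblast markers. Pax5, Cd3e, Cd8a, Gata1, Col1a2, Col3a1, Dcn, Ly6g and Cxcr2 had no peak in any library. The summed called length of the 6 neutrophil and granulocyte precursor markers was 10269 to 11985 bp in the libraries without PAM3 and 5871 to 8065 bp in those with it. Elane, Prtn3 and Ltf made up nearly all of it. Mpo was called in 25HC mouse A (283 bp) and 25HC then PAM3 mouse B (519 bp) alone, and 2 defining markers, Ly6g and Cxcr2, were at 0 throughout. The 6 dendritic cell markers summed to 22145 to 30022 bp without PAM3 and 17971 to 23032 bp with it. Of these, Clec9a and Siglech were shorter in all libraries with PAM3. Xcr1 was longer in all of them (4489 to 4696 bp without, 5492 to 6359 bp with), Ccr7 was called only with PAM3, and Flt3 and Zbtb46 overlapped. Macrophage markers differed too: Adgre1 had 3247 to 5210 bp without PAM3 and 13703 to 21938 bp with it, and Cd163 2946 to 3925 and 1995 to 2067 bp. Itgam was also longer and Csf1r shorter, and the rest overlapped. The part of other cells in the PAM3 results was not tested. In a bulk library, fewer cells with acetylation at a site and less acetylation per cell cannot be told apart.

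Acetyl-H4 was called at most of these stress genes whether or not the macrophages had been treated. A peak lay in the window of 27 of the 34 genes in all 8 libraries (79.4%), as it did at 58.5% of all 21887 genes and 87.5% of the 14589 past the filter. Mean called length ran from 551.5 bp at Stc2 to 6489 bp at Eif2ak3 among the 33 genes past the filter. Of the 31 genes with a listed start, 25 to 30 had a peak within 1 kb of it in a given library, fewest in PAM3 mouse B, and 21 (67.7%) had one in all 8. Over all genes with a listed start, 54.5% to 57.2% had a start peak in a given library and 45.5% in all 8. The members' peaks merged into 102 separate regions, of which 41 had a peak in all 8 libraries. The same was true of 29.8% of 83297 merged regions genome-wide. Among the 30 member regions within 1 kb of a start it was 22, and among the 67 farther away it was 16. The windows of 21 members overlap that of another protein-coding gene, so a peak there may belong to the neighbour, and 13 stand alone.

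**Figure D1:**
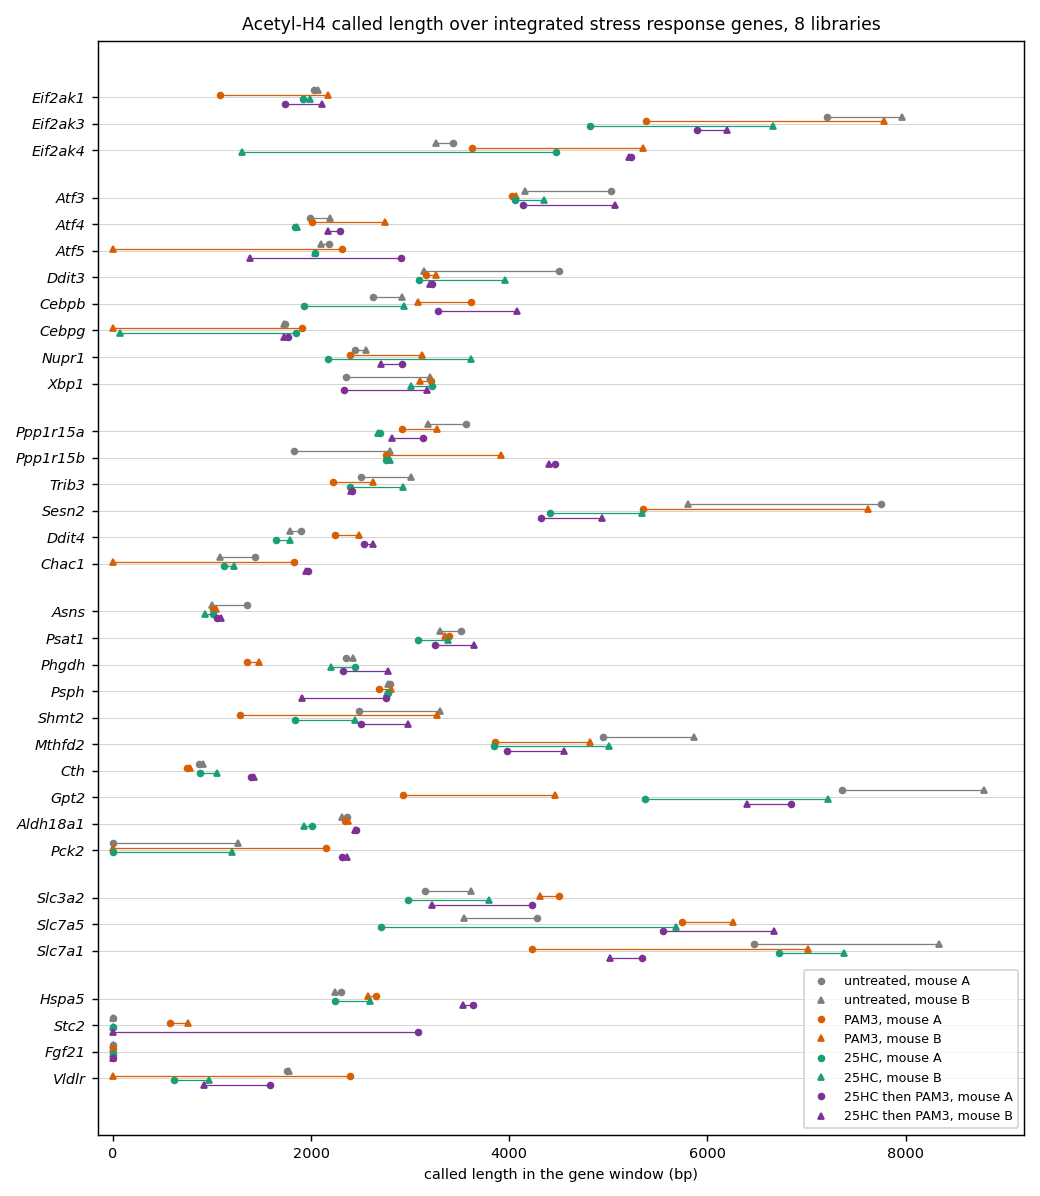
Called length in bp (x axis) of each of the 34 genes (y axis, grouped by role) in the 8 libraries; colours are the groups, circles mouse A, triangles mouse B, and a line joins the pair of libraries of a group. Most genes keep their place on the axis in all groups, Gpt2 spreads from 2928 to 8793 bp, and single PAM3 mouse B points sit at 0 for Atf5, Cebpg, Chac1 and Vldlr.

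Few of these genes passed the test for PAM3. Against untreated cells, 1 of the 33 passed an adjusted p of 0.05 (limma, Benjamini-Hochberg over 14589 genes): Gpt2, an enzyme that converts alanine and pyruvate, fell. Over all genes, 3.87% passed. In 25HC-treated cells no member passed for PAM3 (limma; 3 higher and 0 lower at an unadjusted p under 0.05, and 0 also in limma without trend and robust settings), where 5.02% of all genes did. An unadjusted p under 0.05 was seen at 21.4% of all tested genes in that contrast. Averaged over cells with and without 25HC, 4 libraries against 4, 1 member passed: Ddit4, which encodes an inhibitor of mTORC1, rose. There 11.8% of all genes passed, so the members' share was no larger than that of the genome in any PAM3 contrast. The median log2 difference of the 33 members was −0.060 for PAM3 against untreated, 0.094 for 25HC then PAM3 against 25HC and −0.0058 on average, beside −0.0056, −0.017 and −0.014 over all tested genes. PAM3 mouse B set the sign of the first and the last: without it they were 0.11 and 0.10. Each log2 value is of (called bp + 500 bp), centred on the library's median, a scale that understates differences where little sequence is called. The contrasts share libraries and are not independent of each other.

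**Figure D2:**
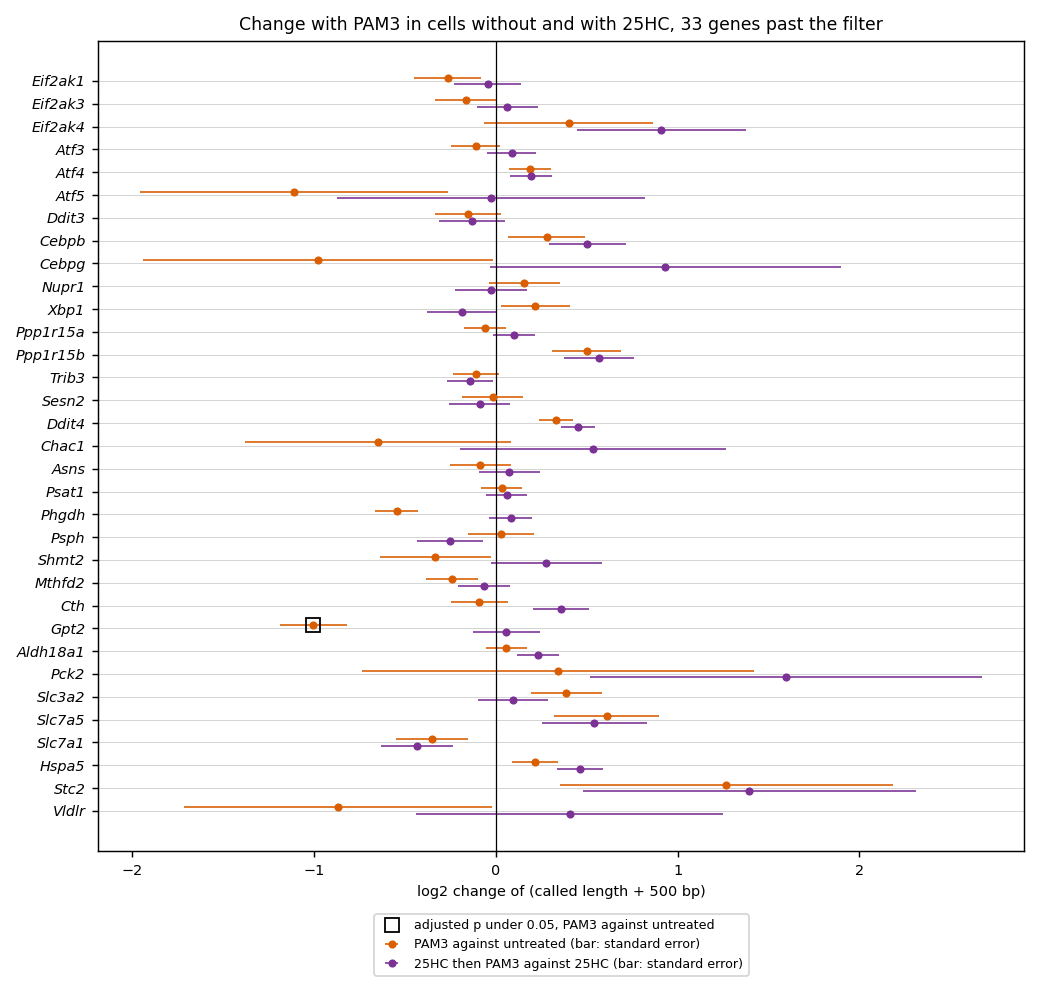
Log2 difference in called length with PAM3 (x axis, bars are 1 standard error) for the 33 genes past the filter (y axis), against untreated cells in orange and against 25HC-treated cells in purple; the square marks the 1 value under an adjusted p of 0.05, Gpt2 at −1.0. The widest bars belong to genes with a library at 0, such as Pck2, Cebpg, Atf5, Vldlr and Stc2, and since Stc2 has no peak in untreated or 25HC libraries the 500 bp sets the size of its values.

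The kinases that phosphorylate eIF2 showed no difference that passed. Eif2ak3 encodes PERK, the kinase that senses unfolded protein in the ER, and had the longest mean called length of the members. Its values were 7211 and 7962 bp untreated, 5376 and 7780 bp with PAM3, 4812 and 6666 bp with 25HC, and 5899 and 6203 bp with 25HC then PAM3 (mouse A before mouse B, here and below). Ranges with PAM3 lay inside or overlapped those without, and the log2 difference for PAM3 against untreated was −0.16 ± 0.17 (SE, adjusted p = 0.665). Eif2ak4 encodes GCN2, the kinase that senses uncharged tRNA. It had 3433 and 3256 bp untreated, 3629 and 5350 bp with PAM3, 4474 and 1303 bp with 25HC, and 5234 and 5207 bp with 25HC then PAM3. In 25HC mouse B the start region had no peak, where the other 7 libraries had 1562 to 3026 bp. For 25HC then PAM3 against 25HC the log2 difference was 0.91 ± 0.47 (SE, adjusted p = 0.347). Without 25HC mouse A, which leaves the library with that gap alone in its group, the value was 1.67 and passed (adjusted p = 0.0302), as did the average PAM3 difference of 1.04 (adjusted p = 0.0192). Eif2ak1, the haem-regulated kinase, ranged from 1083 to 2170 bp, and both extremes were PAM3 libraries.

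Among the transcription factors, 0 of 8 passed in any contrast (limma; 1, Cebpb, had an unadjusted p under 0.05, and 0 passed in limma without trend and robust settings). Atf4, the central factor of the pathway, had 1 region, which covers its start. It measured 1988 and 2195 bp untreated, 2013 and 2748 bp with PAM3, 1834 and 1862 bp with 25HC, and 2289 and 2170 bp with 25HC then PAM3. The PAM3 libraries reached 746 to 789 bp upstream of the start and the others 628 to 666 bp. Peak edges were measured at members only, so how common such an order is among all start peaks is unknown. The average PAM3 difference in Atf4 called length was 0.19 ± 0.082 (log2, SE, adjusted p = 0.208), and the groups with and without PAM3 overlapped. Atf3, a repressor induced by ATF4 and by Toll-like receptor signals, had 5025 and 4158 bp untreated, 4029 and 4072 bp with PAM3, 4058 and 4351 bp with 25HC, and 4137 and 5072 bp with 25HC then PAM3. Nearly all of this was 1 region around the start shown above, which measured 4029 to 5072 bp in the 8 libraries. The PAM3 difference of Atf3 was −0.11 ± 0.14 against untreated and 0.088 ± 0.14 against 25HC (log2, SE, adjusted p = 0.733 and 0.802).

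Ddit3 encodes CHOP, which promotes cell death under lasting stress. It had 4499 and 3137 bp untreated, 3156 and 3264 bp with PAM3, 3094 and 3959 bp with 25HC, and 3224 and 3204 bp with 25HC then PAM3, all groups overlapping. Its window overlaps those of Dctn2, Mars1 and Mbd6. Xbp1, the factor spliced by IRE1 in the unfolded protein response, had 2354 and 3197 bp untreated, 3213 and 3101 bp with PAM3, 3217 and 3006 bp with 25HC, and 2331 and 3170 bp with 25HC then PAM3, with no order among the groups.

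Cebpb encodes a C/EBP factor central to macrophage gene expression and a partner of ATF4. It had 2622 and 2920 bp untreated, 3612 and 3083 bp with PAM3, 1925 and 2938 bp with 25HC, and 3284 and 4079 bp with 25HC then PAM3. All 4 libraries with PAM3 lay above all 4 without, as they did at 7.11% of all tested genes. The average PAM3 difference was 0.39 ± 0.15 (log2, SE, limma adjusted p = 0.164). The added length lay away from the gene: from 1 to 5 kb outside the gene body the PAM3 libraries had 1164 to 2334 bp and the others 0 to 876 bp, whereas inside and within 1 kb they had 950 to 2378 bp and 1925 to 2938 bp. With a flank of 1 kb the average difference was accordingly −0.37 (adjusted p = 0.304). A separate upstream region, chr2:167685405-167686696, had 1239 and 1193 bp in 25HC then PAM3 and 268 bp in PAM3 mouse A, and no peak in the other 5 libraries. The remaining factors, Atf5, Cebpg and Nupr1, had adjusted p-values of 0.544, 0.652 and 0.739 for PAM3 against untreated, and the first pair is taken up with the missing start peaks below.

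The genes that feed back on the pathway or brake growth held the member that rose. Ddit4 had 1900 and 1791 bp untreated, 2238 and 2479 bp with PAM3, 1649 and 1785 bp with 25HC, and 2536 and 2620 bp with 25HC then PAM3. All 4 PAM3 libraries were above all 4 others, an order seen at 7.11% of all tested genes. The pair from each mouse moved alike, by 0.42 in mouse A and 0.36 in mouse B. The average PAM3 rise was 0.39 ± 0.067 (log2, SE, limma adjusted p = 0.0206; 0.0414 with a mouse block). Taken singly, the contrasts did not pass, with 0.33 ± 0.094 against untreated (adjusted p = 0.130) and 0.45 ± 0.094 against 25HC (adjusted p = 0.0564). Ddit4 is on chromosome 10 from 59949675 to 59951770, and its window overlaps no other.

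The added length at Ddit4 lay at the upstream edge of 1 peak that covers the start. That edge lay 1570 to 1992 bp upstream with PAM3 and 772 to 993 bp upstream without. The downstream edge moved the other way, to 578 to 667 bp inside the gene with PAM3 from 805 to 906 bp without. How many start peaks of all genes show such edges was not counted. The deposited fold enrichment of these peaks was 1.5 to 2.15 with PAM3 and 1.33 to 1.80 without, so the ranges overlapped. A flank of 1 kb, which leaves out the added upstream stretch, gave −0.092 (adjusted p = 0.428). Peaks of a −log10 q of at least 5 gave −0.72 (adjusted p = 0.741), and the start peak was below that limit in PAM3 mouse A (4.12) and in 25HC then PAM3 mouse A (3.14). Truncating each list to the same covered length gave 0.41 (adjusted p = 0.188), and leaving out a single untreated or 25HC library gave 0.38 to 0.40 with adjusted p-values of 0.0597 to 0.0684.

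Ppp1r15b encodes the constitutive partner that directs phosphatase to eIF2. It had 1826 and 2800 bp untreated, 2751 and 3917 bp with PAM3, 2754 and 2794 bp with 25HC, and 4466 and 4399 bp with 25HC then PAM3. The 25HC then PAM3 libraries were the longest, and the average PAM3 difference was 0.53 ± 0.14 (log2, SE, adjusted p = 0.0613), which missed the threshold. Without untreated mouse B, which leaves a single untreated library, it was 0.66. Its stress-inducible relative Ppp1r15a, known as GADD34, had 3564 and 3182 bp untreated, 2922 and 3270 bp with PAM3, 2696 and 2676 bp with 25HC, and 3127 and 2818 bp with 25HC then PAM3, and its average PAM3 difference was 0.019 ± 0.082 (log2, SE, adjusted p = 0.915).

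Trib3, a pseudokinase that restrains ATF4, had 2506 and 3008 bp untreated, 2224 and 2620 bp with PAM3, 2397 and 2924 bp with 25HC, and 2408 and 2399 bp with 25HC then PAM3, so that libraries with and without PAM3 overlapped. Sesn2, an inhibitor of mTORC1 that also senses leucine, had 7751 and 5804 bp untreated, 5351 and 7623 bp with PAM3, 4412 and 5337 bp with 25HC, and 4323 and 4935 bp with 25HC then PAM3. It was the 1 member at which all 4 libraries with 25HC lay below all 4 without, by as little as 5337 against 5351 bp. That order was seen at 1.89% of all tested genes. The average 25HC difference was −0.40 ± 0.12 (log2, SE, adjusted p = 0.280). A region inside the gene, chr4:132504420-132505570, had 415 to 1064 bp in 6 libraries and no peak in either 25HC then PAM3 library.

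Of the enzymes for amino acids and one-carbon units, 1 of 10 passed. Gpt2, on chromosome 8 from 85492576 to 85528902, had 7357 and 8793 bp untreated, 2928 and 4461 bp with PAM3, 5370 and 7214 bp with 25HC, and 6848 and 6401 bp with 25HC then PAM3. The PAM3 pair lay below all other libraries. How many of all tested genes have a pair of libraries outside the rest was not counted, for this or any other member. The fall against untreated was −1.0 ± 0.19 (log2, SE, limma adjusted p = 0.0490), of nearly equal size in mouse A (−1.03) and mouse B (−0.98). With mouse blocked the change was the same and the adjusted p 0.0720. The call also ended when any 1 library was left out (−0.85 to −1.16, adjusted p 0.0775 to 0.161), with 1 kb flanks (−0.93, 0.0718), without median subtraction (−1.05, 0.0966), with a pseudocount of 100 bp (−1.08, 0.0549), without the filter (0.0554), at equal covered length (−0.87, 0.548) and with strong peaks alone (−0.89, 0.838).

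The shortening at Gpt2 was in the gene body and not at the start. The start region measured 1383 and 1820 bp with PAM3 and 1512 to 1974 bp in the other 6 libraries. A region 19 kb inside the gene, chr8:85511852-85514515, had 1898 and 2152 bp untreated, 0 and 555 bp with PAM3, 804 and 1397 bp with 25HC, and 637 and 0 bp with 25HC then PAM3. Another at chr8:85525633-85526808 had 920 and 438 bp in untreated cells and no peak elsewhere. The higher total after 25HC then PAM3 included 1813 and 1847 bp at chr8:85532056-85533902, past the end of the gene, where the window of Dnaja2 overlaps. Within the gene and 1 kb around it, the 4 PAM3 libraries had 2928 to 4911 bp and the other 4 had 5370 to 8096 bp, so they did not overlap. Such orders were counted over all tested genes for the 5 kb window only, where those of Gpt2 overlapped. The inner part was looked at after the values were seen, and the share of all genes passing with it is not given here. With flanks of 1 kb the average PAM3 difference was −0.67 and passed (adjusted p = 0.0374), whereas with 5 kb it was −0.47 ± 0.13 (SE, adjusted p = 0.0768).

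Phgdh, which commits glycolytic carbon to serine, was also shortest with PAM3 alone. It had 2353 and 2423 bp untreated, 1357 and 1472 bp with PAM3, 2445 and 2204 bp with 25HC, and 2318 and 2773 bp with 25HC then PAM3. The PAM3 pair lay below the other 6 libraries, and each difference missed the threshold: −0.55 ± 0.12 against untreated (log2, SE, adjusted p = 0.0675) and, against the same PAM3 libraries, 0.66 ± 0.12 for 25HC then PAM3 (adjusted p = 0.0740). The peak just inside the start ended 1433 and 1511 bp into the gene with PAM3 and 2058 to 2509 bp into it in the other libraries. Neither order was counted over all tested genes. At equal covered length the first difference was 0.69 (adjusted p = 0.775), the opposite sign.

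Cth, the last enzyme of cysteine synthesis from methionine, had 872 and 912 bp untreated, 752 and 779 bp with PAM3, 878 and 1052 bp with 25HC, and 1392 and 1427 bp with 25HC then PAM3. The last pair stood above the other 6 libraries, and the difference from PAM3 was 0.58 ± 0.15 (log2, SE, adjusted p = 0.157). That order was not counted over all tested genes. Asns, which makes asparagine and is a classic ATF4 target, had 1356 and 1001 bp untreated, 1005 and 1040 bp with PAM3, 1007 and 927 bp with 25HC, and 1048 and 1093 bp with 25HC then PAM3. Its start region was nearly constant, at 927 to 1093 bp over the 8 libraries.

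The other enzymes varied to different degrees. Psat1 ranged from 3075 to 3646 bp and Aldh18a1, which starts proline synthesis, from 1924 to 2453 bp. Psph was between 2684 and 2808 bp in 7 libraries and 1905 bp in 25HC then PAM3 mouse B. Mthfd2 ranged from 3850 to 5863 bp and Shmt2 from 1279 to 3305 bp, the lowest in PAM3 mouse A. That library had no peak at chr10:127512123-127514109, past the end of Shmt2, where the others had 1079 to 1987 bp. The window overlaps those of Ndufa4l2, Nxph4 and Stac3. The start region of Shmt2 had 1279 to 2071 bp with PAM3 and 699 to 977 bp without, an order not counted over all genes. Pck2, the mitochondrial PEP carboxykinase, had 0 and 1257 bp untreated, 2146 and 0 bp with PAM3, 0 and 1199 bp with 25HC, and 2307 and 2364 bp with 25HC then PAM3. Its single region at the start was thus called in 5 libraries, and no difference passed.

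The amino acid transporters gave no call. Slc7a5, the light chain of the large neutral amino acid carrier, had 4284 and 3541 bp untreated, 5740 and 6259 bp with PAM3, 2705 and 5682 bp with 25HC, and 5550 and 6676 bp with 25HC then PAM3. Only 25HC mouse B reached the range of the PAM3 libraries. The average PAM3 difference was 0.58 ± 0.20 (log2, SE, adjusted p = 0.139). Without 25HC mouse B, the library that overlapped, it was 0.80, with a single 25HC library left, so no call is read from it. Its heavy chain partner Slc3a2 had 3147 and 3611 bp untreated, 4504 and 4308 bp with PAM3, 2974 and 3799 bp with 25HC, and 4227 and 3222 bp with 25HC then PAM3, and its average difference was 0.24 ± 0.14 (SE, adjusted p = 0.337). Slc7a1, the cationic amino acid carrier, had 6472 and 8334 bp untreated, 4234 and 7014 bp with PAM3, 6720 and 7378 bp with 25HC, and 5340 and 5015 bp with 25HC then PAM3, an average difference of −0.39 ± 0.14 (log2, SE, adjusted p = 0.142). Its start region, 1523 to 1630 bp in all 8 libraries, hardly varied, and the spread lay in regions inside the gene.

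Hspa5 encodes BiP, the main chaperone of the ER and the read-out of the unfolded protein response. It had 2301 and 2238 bp untreated, 2650 and 2574 bp with PAM3, 2242 and 2599 bp with 25HC, and 3638 and 3533 bp with 25HC then PAM3. The last pair stood far above the rest, an order not counted over all tested genes, and 25HC mouse B lay between the PAM3 pair. The average PAM3 difference was 0.34 ± 0.088 (log2, SE, adjusted p = 0.0633) and the difference of 25HC then PAM3 from 25HC was 0.46 ± 0.12 (SE, adjusted p = 0.0994), and both missed the threshold. Without PAM3 mouse B, which leaves a single library in the PAM3 group, the average was 0.40. With 1 kb flanks and all libraries it was −0.077 (adjusted p = 0.506).

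The extra length at Hspa5 had a pair of sources. The start peak reached 1573 to 1634 bp upstream in the untreated, PAM3 and 25HC libraries and 2311 and 2415 bp in those with 25HC then PAM3. This edge, too, was not compared with those of all genes. Downstream of the gene, chr2:34777653-34778533 had 495 and 372 bp with PAM3, 863 and 575 bp with 25HC then PAM3, and no peak in the 4 libraries without PAM3. A separate peak of 382 bp farther downstream, chr2:34779064-34779445, was called in 25HC mouse B alone. The first of these was the 1 region of the members' 102 with that pattern, which 1.68% of merged regions genome-wide showed, and none showed the opposite, which 1.63% did. The window of Rabepk overlaps that of Hspa5. The deposited −log10 q of the peaks in that downstream region was 1.80 and 11.2 with PAM3 and 19.8 and 15.7 with 25HC then PAM3.

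**Figure D3:**
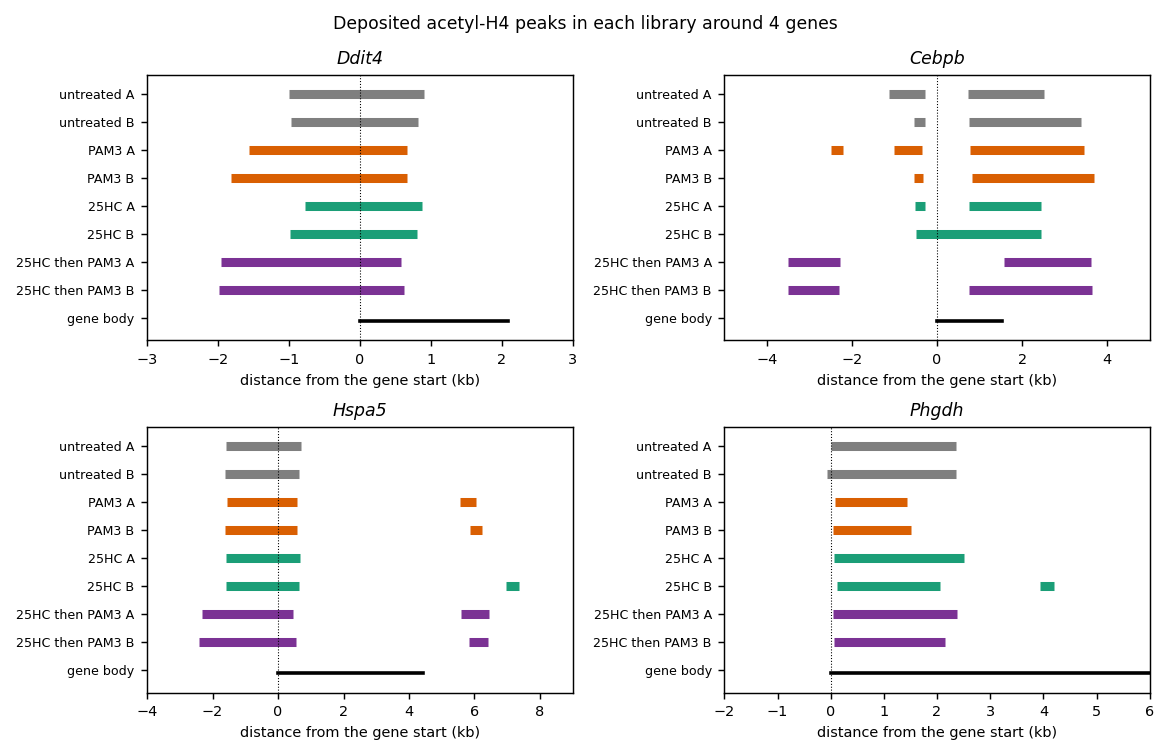
Deposited peaks (coloured bars) in each of the 8 libraries around Ddit4, Cebpb, Hspa5 and Phgdh; the x axis is distance in kb from the gene start in the direction of the gene, and the black bar is the gene body. The Ddit4 peak reaches 1570 to 1992 bp upstream with PAM3 and 772 to 993 bp without, a downstream Hspa5 peak appears in all 4 libraries with PAM3, with a separate one of 382 bp farther out in 25HC mouse B, and the Phgdh peak is shortest with PAM3 alone.

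Stc2, which encodes a secreted stanniocalcin, had no peak in untreated or 25HC libraries, 576 and 762 bp with PAM3, and 3074 and 0 bp with 25HC then PAM3, all in 1 region at its start. With a library of the last group at 0, the average PAM3 difference did not pass (adjusted p = 0.265). Stc2 cleared the 500 bp filter only through libraries with PAM3, so a test of PAM3 on it is no independent support for a rise. Leaving out 25HC then PAM3 mouse B removes the PAM3 library at 0 and leaves a single library in that group, so no call is read from it. No fold is given, because the groups without PAM3 had no peak. Fgf21, a stress hormone best known from the liver, had no peak in any library although its promoter, printed above, carries the exact composite element. Vldlr, a lipoprotein receptor, ranged from 0 to 2392 bp.

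Where in the window the members differed was looked at after the values were seen. Inside the gene body and within 1 kb of it, mean called length was higher in the 4 PAM3 libraries at 17 members, lower at 16 and equal at 1. From 1 to 5 kb outside the gene it was higher at 17, lower at 7 and equal at 10. Over the 14589 tested genes the inner part was higher at 46.3% and lower at 51.3%, and the outer part higher at 33.0% and lower at 35.0%. The split of the members was found in these data and was not tested. The largest outer gains were at Cebpb (251 to 1764 bp), Slc7a5 (1109 to 2541 bp), Hspa5 (689.8 to 1559.5 bp) and Ddit4 (0 to 834.5 bp). Chac1 and Atf5 had outer sequence called in none of the libraries without PAM3. For Chac1 it was 321 bp in PAM3 mouse A and 351 and 364 bp with 25HC then PAM3, and for Atf5 it was 1046 bp in PAM3 mouse A and 1707 bp in 25HC then PAM3 mouse A. The window of Atf5 overlaps those of Il4i1b and Nup62, and the window of Slc7a5 overlaps that of Car5a, so these peaks may belong to a neighbour. No member had all 4 PAM3 libraries below all 4 others over its whole window, an order seen at 9.66% of all tested genes. At 2 members they lay above, as at 7.11% of all tested genes.

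**Figure D4:**
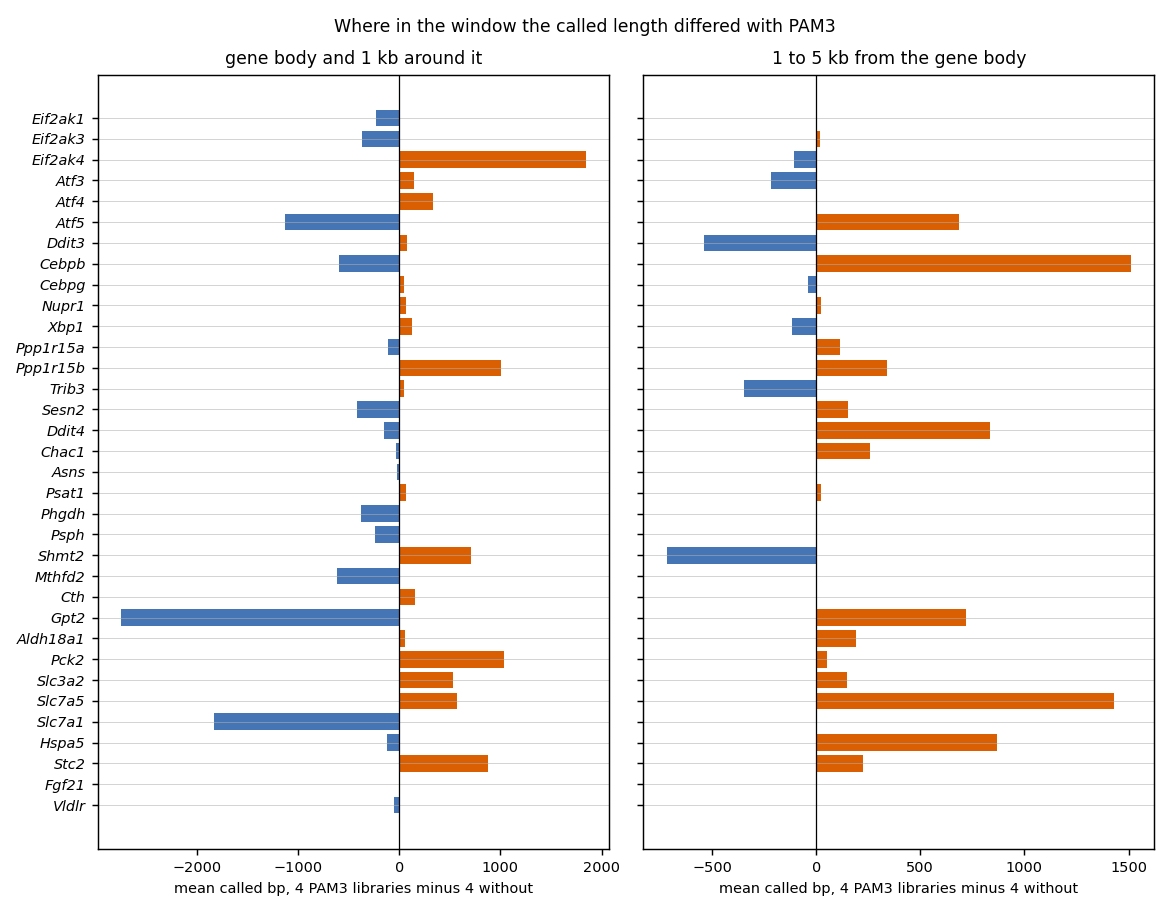
Mean called length of the 4 PAM3 libraries minus that of the 4 without, in bp (x axes, of different scale), inside the gene body and 1 kb around it (left) and from 1 to 5 kb outside it (right), for each of the 34 genes; orange is higher with PAM3 and blue lower. The left panel is split 17 to 16, and in the right panel 17 genes are higher and 7 lower.

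Chac1, a glutathione-degrading enzyme and one of the most ATF4-dependent genes, lost its peak in 1 library. It had 1437 and 1077 bp untreated, 1830 and 0 bp with PAM3, 1120 and 1220 bp with 25HC, and 1968 and 1947 bp with 25HC then PAM3. Apart from PAM3 mouse B, its start peak reached 1321 to 1364 bp upstream in the PAM3 libraries and 628 to 938 bp in the others. The share of all start peaks with that order was not counted. Atf5, an ATF4-related factor, had 2181 and 2104 bp untreated, 2313 and 0 bp with PAM3, 2037 and 2040 bp with 25HC, and 2912 and 1384 bp with 25HC then PAM3. Cebpg, the C/EBP partner of ATF4, lacked its start peak in PAM3 mouse B and also in 25HC mouse B, and measured 1637 to 1764 bp at the start in the other 6.

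Chac1, Atf5, Cebpg and Vldlr were at 0 in PAM3 mouse B and in no other library. That held for 1.71% of tested genes in this library, the highest share of the 8, and 0 members were at 0 in any other library alone. Where the start peak was called, its deposited −log10 q spanned 4.28 to 35.1 at Atf5, 4.91 to 29.3 at Cebpg, 1.49 to 49.97 at Chac1 and 1.43 to 32.6 at Vldlr. PAM3 mouse B also had the most peaks and the greatest covered length of the 8 libraries. The PAM3 difference of Chac1 against untreated was 0.43 in mouse A and −1.73 in mouse B (log2), and its average did not pass (adjusted p = 0.961). That average depended on which PAM3 library was kept: without mouse B it was 0.55 and passed (adjusted p = 0.0409), and without mouse A it was −0.67 and passed in the opposite direction (adjusted p = 0.0310). With PAM3 mouse A left out, Atf5 and Vldlr also passed against untreated (adjusted p = 0.0440 and 0.0384), on a PAM3 group of 1 library at 0 whose spread is taken from the other groups. Chac1 then passed in the contrast with 25HC then PAM3 (adjusted p = 0.00962), in the difference of differences (0.0277) and for 25HC on average (0.0286).

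**Figure D5:**
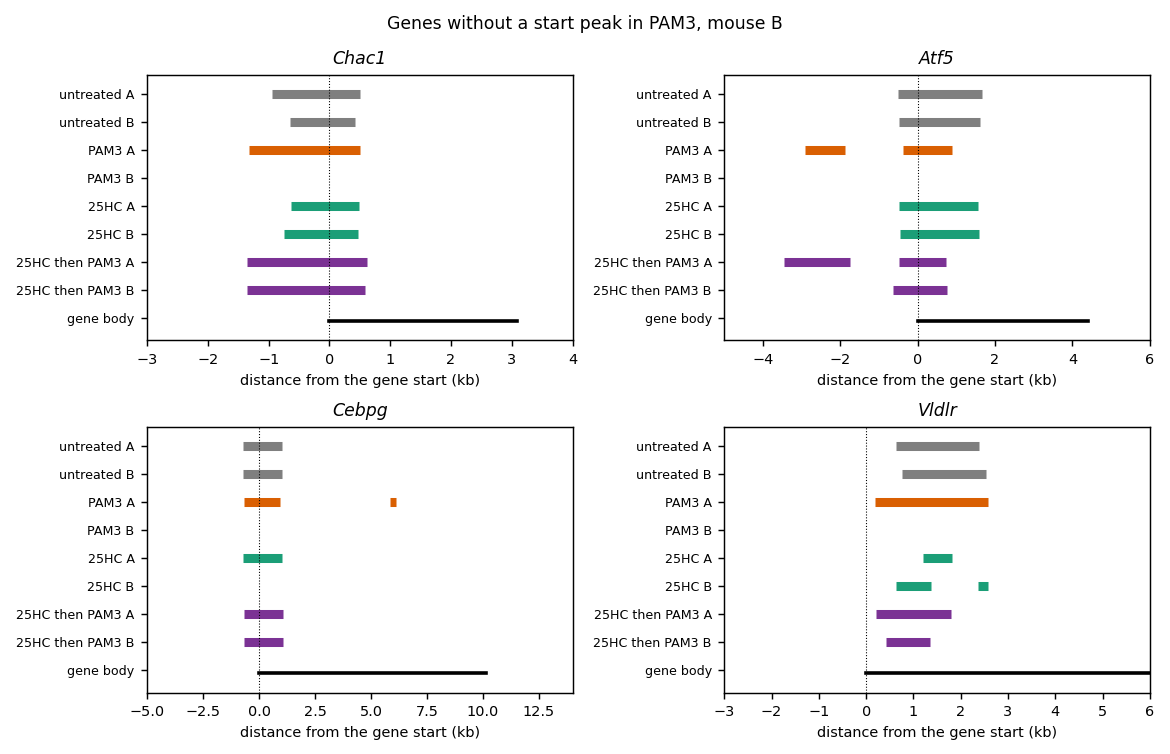
Deposited peaks (coloured bars) in the 8 libraries around Chac1, Atf5, Cebpg and Vldlr; the x axis is distance in kb from the gene start in the direction of the gene, and the black bar is the gene body. The row of PAM3 mouse B is empty in all 4 panels, and that of 25HC mouse B is also empty for Cebpg over the range drawn.

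The authors' scores describe the strength of these peaks. The median deposited −log10 q over the members' start regions was 6.98 to 13.7 in the 4 libraries without PAM3 and 4.80 to 9.14 in the 4 with it, ranges that overlap. The median deposited fold enrichment was 1.64 to 1.95 without and 1.58 to 1.87 with. Raising the requirement to a −log10 q of 5 left 2 members with a start peak in all 8 libraries, in place of 21. Read depth is unknown, and its part in these values was not tested.

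For 25HC without PAM3, 0 of 33 members passed (limma; 0 at an unadjusted p under 0.05 in either direction, and 0 in limma without trend and robust settings), beside 0.0343% of all tested genes. An unadjusted p under 0.05 was seen at 4.65% of all tested genes there. The median of the members was −0.0080 on the log2 scale and that of all genes 0.015. In PAM3-treated cells, 25HC then PAM3 against PAM3, 0 members passed (limma; 4 higher and 1 lower at an unadjusted p under 0.05, and 0 in limma without trend and robust settings), against 1.3% of all genes, and the median was 0.099 beside 0.0059. Without PAM3 mouse B the members' median was −0.017. The 5 at an unadjusted p under 0.05 were Phgdh, Cth, Gpt2 and Hspa5, higher after 25HC, and Sesn2, lower. In this contrast 14.9% of all tested genes had an unadjusted p under 0.05. Gpt2 differed by 0.78 ± 0.19 (log2, SE, adjusted p = 0.128). This contrast and PAM3 against untreated share the PAM3 libraries, in which Gpt2 and Phgdh were lowest, so the values do not add to each other.

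Whether PAM3 acted differently after 25HC was tested as a difference of differences. It passed at 0 of 33 members (limma; 2 higher and 0 lower at an unadjusted p under 0.05, and 0 in limma without trend and robust settings) and at 0.0% of all genes, 1438 of which had an unadjusted p under 0.05. The members' median was 0.18, or 0.076 without PAM3 mouse B, and that of all genes −0.0089. The pair at an unadjusted p under 0.05 were Gpt2 (1.06 ± 0.26, SE, adjusted p = 0.284) and Phgdh (0.63 ± 0.17, SE, adjusted p = 0.307). Averaged over cells with and without PAM3, 25HC gave 0 calls among the members (limma, and 0 in limma without trend and robust settings) and 0.0685% among all genes, with medians of 0.0065 and 0.0099. At an unadjusted p under 0.05, 4 members were higher and 1 lower there, beside 11.4% of all tested genes.

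Other genes of the pathway, in lists that were likewise drawn up with earlier results of these data known, gave a few calls each. Of 29 further ATF4 targets, 1 rose and 1 fell for PAM3 against untreated, 2 rose for 25HC then PAM3 against 25HC, and 3 rose and 4 fell on average. Over all tested genes 1.89% rose and 1.97% fell in the first contrast. In the second 2.73% rose and 2.3% fell, and on average 5.94% rose and 5.88% fell. Pycr1, which completes proline synthesis, rose in all 3 PAM3 contrasts in the fit without the block. Block values of its single contrasts are not given here. It had 1108 and 1133 bp untreated, 1714 and 2026 bp with PAM3, 973 and 1044 bp with 25HC, and 1807 and 2203 bp with 25HC then PAM3, an average rise of 0.65 ± 0.072 (log2, SE, limma adjusted p = 0.00762; 0.0215 with a mouse block). Gadd45a, a growth arrest gene, rose by 0.87 ± 0.17 with PAM3 in 25HC-treated cells (SE, adjusted p = 0.0494, and 0.0916 with the block) and by 0.56 ± 0.12 on average (SE, adjusted p = 0.0402, and 0.0742 with the block).

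Of the 12 aminoacyl-tRNA synthetase genes on that list, 4 fell on average, 0 rose and 8 did not pass, with log2 differences from −0.73 to 0.68 over the 12. Of all tested genes 5.88% fell, and the synthetases were singled out after their values were seen. Nars fell from 3716 and 3653 bp untreated to 1706 and 2546 bp with PAM3, and its average change was −0.51 ± 0.082 (log2, SE, adjusted p = 0.0180, and 0.0376 with the block). Gars had an average change of −0.73 ± 0.15 (SE, adjusted p = 0.0331, and 0.0652 with the block) and Mars1, whose window overlaps that of Ddit3, one of −0.35 ± 0.078 (SE, adjusted p = 0.0414, and 0.0741 with the block). Over the list the median average change was 0.054, beside −0.014 over all genes.

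Of 23 ER chaperone and ERAD genes, 1 rose in each PAM3 contrast. The shares of all tested genes that rose were 1.89% against untreated, 2.73% against 25HC and 5.94% on average. Sel1l, the adaptor of the ER-associated ubiquitin ligase, had 754 and 1696 bp untreated, 5719 and 7757 bp with PAM3, 1350 and 672 bp with 25HC, and 7138 and 7147 bp with 25HC then PAM3. All libraries with PAM3 lay above all those without, an order seen at 7.11% of all tested genes. The average rise of Sel1l was 2.25 ± 0.24 (log2, SE, adjusted p = 0.00728, and 0.0222 with the block). The list's median average change was 0.088. In single contrasts the block ended the calls for Sel1l (adjusted p = 0.0741 against untreated and 0.0587 against 25HC).

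Of 16 genes of the eIF2 machinery, 1 fell for PAM3 against untreated and 3 fell on average. The shares of all tested genes that fell were 1.97% and 5.88%. Gcn1, the activator of GCN2, had 6249 and 5845 bp untreated, 2775 and 3299 bp with PAM3, 4170 and 4317 bp with 25HC, and 4129 and 4662 bp with 25HC then PAM3. It fell by 0.84 ± 0.092 against untreated (log2, SE, adjusted p = 0.0170, and 0.0479 with the block). Eif2s2, the beta subunit of eIF2, had 3174 and 3709 bp untreated, 1372 and 1377 bp with PAM3, 1906 and 3038 bp with 25HC, and 1371 and 1399 bp with 25HC then PAM3, an average change of −0.84 ± 0.14 (SE, adjusted p = 0.0190, and 0.0374 with the block). Eif2b5, of the exchange factor that recycles eIF2, changed by −0.57 ± 0.13 on average (SE, adjusted p = 0.0441, and 0.0543 with the block). The list's median average change was −0.14. None of these 3 lists had a call in the contrasts of 25HC or in the difference of differences (limma).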

How the data were processed

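Acetyl-H4 ChIP-seq peak lists from 8 macrophage libraries were used. GSNAP aligned the reads to GRCm38 (mm10) and MACS2 2.1.0 made the broad peaks, according to the submitters' processing notes. The control, read filters and cutoffs of the peak caller are not given in these sources. Of the deposited columns, the authors' fold ratio and the authors' −log10 q of each peak served only to describe or filter peaks. The deposited start and end of each peak, in bp, gave called length. The files hold no read counts, so read depth is unknown and counting intervals cannot be given.

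Called length per gene window (RefSeq gene bodies on GRCm38.p6 with 5 kb flanks) was summed per library. Log2(called bp + 500 bp), with the library median subtracted, entered limma 3.58.1 (R 4.3.3, trend and robust) over all 14589 genes with a mean of at least 500 bp, in 1 model over 4 groups with 7 contrasts and 4 residual degrees of freedom. Calls needed a Benjamini-Hochberg adjusted p under 0.05. The script was tested on simulated data. With changes of 1 and of 2 on the log2 scale put into the PAM3 libraries, at 100 genes each, it called 40 and 69 of them, and 5 unchanged genes. A gene that did not pass may therefore still have changed. Per the labels a letter marks one mouse, which pairs the libraries by design. Same-letter deviations from the group mean had correlations of −0.017 to 0.0304. The fit reported has no mouse block, and values from the fit with the block stand beside most of the calls they concern. Regions are peaks of all libraries merged where they overlap or touch.

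The members, lists and rules were chosen with earlier results of these data known. By the naming rule, full values are given for members with an adjusted or unadjusted p under 0.05 in any contrast and for 12 listed ones. Genes of the other lists are named at an adjusted p under 0.05, at most 5 per list and contrast. Peak edges, inner and outer parts of the windows, orders without overlap and single-library gaps were examined after seeing the data, as were the synthetase genes and the full values of Atf5, Pck2, Slc3a2 and Stc2. Alternatives covered the block, the peak threshold, median subtraction, the pseudocount, the flank, the filter, equal covered length, the limma settings and each library left out.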

Additional observations from a re-analysis of the deposited data

How the results depend on the processing

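Below, PAM3 without 25HC and 25HC alone are set against untreated cells, PAM3 after 25HC against 25HC, and 25HC under PAM3 sets 25HC then PAM3 against PAM3. With mouse as a replicate block, 168 genes passed for PAM3 without 25HC (564 without it), 281 for PAM3 after 25HC (733), 0 for 25HC alone (5), 0 for 25HC under PAM3 (190) and 0 for 25HC on average (10), and 0 members in place of 1 for PAM3 without 25HC. Among the members the block ended the call of Gpt2 and no other, and 1236 genes passed for PAM3 on average (1724). With peaks of a −log10 q of at least 5, which keeps 25073 to 33831 peaks, 0 genes and 0 members passed in any contrast, and 2 members had a start peak and 2 member regions a peak in all 8 libraries (21 and 41). The member medians there were −0.42 (PAM3 without 25HC), −0.18 (PAM3 after 25HC), 0.091 (25HC alone), −0.042 (difference of differences) and −0.12 (PAM3 on average). Without median subtraction 321, 360, 91, 1095 and 0 genes passed for PAM3 without 25HC, PAM3 after 25HC, 25HC under PAM3, PAM3 on average and 25HC on average, and 0 members for the first. The medians for 25HC alone and the difference of differences were −0.070 and 0.25. A pseudocount of 100 bp gave 3 genes for the difference of differences and 19 for 25HC on average, 0 members for PAM3 without 25HC, 1 for PAM3 after 25HC (Ddit4, adjusted p = 0.0490), and a median difference of differences of 0.21. One of 2000 bp gave 0 genes for 25HC alone and on average, and a median of 0.12. Flanks of 1 kb gave 5 genes for the difference of differences and 1 for 25HC on average, 0 members for PAM3 without 25HC and 2 for PAM3 on average, and medians of 0.0034 (25HC alone), 0.041 (25HC under PAM3) and 0.13 (difference of differences). Without the filter 14 and 37 genes passed for 25HC alone and on average, 0 members for PAM3 without 25HC, and the median difference of differences was 0.17. At an equal covered length of 56.6 Mb, 2 genes passed for PAM3 without 25HC, 186 for PAM3 on average and 0 in the other contrasts, with 0 members, and the medians were −0.091 (25HC alone), 0.032 (25HC under PAM3) and 0.23 (difference of differences). Without trend and robust settings limma gave 13, 32 and 62 genes for 25HC alone, the difference of differences and 25HC on average.

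Leaving out 1 library at a time gave, in the order PAM3 without 25HC, PAM3 after 25HC, 25HC alone, 25HC under PAM3, difference of differences, PAM3 on average and 25HC on average, 160 to 872, 108 to 814, 0 to 97, 0 to 434, 0 to 192, 714 to 1861 and 0 to 240 genes. Members passing were 0 to 3, 0 to 1, 0 to 0, 0 to 1, 0 to 1, 0 to 3 and 0 to 1, and member medians −0.060 to 0.11, 0.089 to 0.21, −0.058 to −0.0034, −0.017 to 0.13, 0.076 to 0.18, −0.011 to 0.10 and −0.022 to 0.063. Members with a start peak in all libraries were 21 to 24.

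Of 457 values of 27 results on single members, 411 kept direction and side of the threshold, 20 lost a call, 5 gained one and 21 changed sign. The sign changes were, with strong peaks, Ddit4 at −0.71 (PAM3 without 25HC), −0.72 (PAM3 after 25HC) and −0.72 (PAM3 on average), Hspa5 at −0.36 (PAM3 after 25HC), Sesn2 at 0.56 (25HC under PAM3) and 0.042 (25HC on average) and Gpt2 at −1.02 (25HC under PAM3). With 1 kb flanks they were Ddit4 at −0.081, −0.10 and −0.092 in the same 3 contrasts, Cebpb at −0.37 (PAM3 on average) and Hspa5 at −0.13, −0.054, −0.077 and −0.0032 (PAM3 after 25HC, 25HC under PAM3, PAM3 and 25HC on average). At equal covered length they were Phgdh at 0.69, −0.52 and 0.43 (PAM3 without 25HC, difference of differences, PAM3 on average), Cth at −0.35 and −0.51 (25HC under PAM3, 25HC on average) and Gpt2 at −0.13 (25HC under PAM3). The 1 kb values leave out sequence beyond 1 kb by construction, and the cause of the other changes was not tested.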
